A study of Mus musculus with 20 samples.

Results

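The genes described here are 6 transcription factors of the primitive endoderm, Gata6, Gata4, Sox17, Sox7, Hnf4a and Foxa2, and the cell surface receptor Pdgfra, measured in mouse blastocysts on Affymetrix MOE430 2.0 arrays. They were found by gene symbol in the platform annotation, which gave 17 of the 45101 probe sets on the array for these 7 genes. A probe set is a group of short probes designed against a transcript, and most of these genes have more than 1. Of the 17 probe sets, 14 were called Present on at least 3 of the 20 arrays and were tested. The other 3, the only Foxa2 probe set and 1 each of Gata4 and Sox7, were not.

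The study asked what taking a cell from an early embryo does to gene expression in the blastocyst. CF1 embryos underwent their treatment as 8-cell embryos and were then cultured to 96 h after hCG, the hormone given to bring on ovulation. The 5 groups were untreated embryos, embryos kept for a short time in calcium- and magnesium-free medium, which loosens contacts between cells (CMF), embryos whose shell was opened with acid Tyrode's solution (acid), embryos given both (CMF_acid), and embryos given both from which a blastomere was then removed (biopsy). Each group had 4 pools of 20 embryos, so 400 embryos in all, and no gene was deleted or added in any group. The pools are numbered 2 to 5 in each group, and the labels do not say what a number stands for or whether pools came from separate matings, so p-values measure the spread between pools, part of which may be technical.

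The primitive endoderm is the layer of cells that covers the inner cell mass on the side of the blastocyst cavity and later gives rise to the yolk sac endoderm. Gata6 acts at the start of its specification in response to FGF signalling, with Nanog marking the neighbouring epiblast precursors. Sox17, Gata4 and Sox7 come on in sequence after it, and Pdgfra is the receptor commonly used to label these cells. Hnf4a and Foxa2 belong to the later visceral endoderm. Because each array holds RNA of whole embryos, fewer cells of a type and less RNA per cell cannot be told apart.

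GATA factors bind the core sequence GATA and SOX factors an ACAAT-like core, so the start regions of 2 of the genes are shown, Pdgfra because it is the receptor whose level varied between pools and Hnf4a because 1 of its 2 start windows holds both motifs. Each is the 250 bases before an annotated transcript start in RefSeq on GRCm38.p6, read 5′ to 3′ on the plus strand, with matches to GATAA or ACAAT on either strand in capitals. The Pdgfra window is chr5:75152001-75152250 and the Hnf4a window shown is chr2:163506607-163506856.
Pdgfra: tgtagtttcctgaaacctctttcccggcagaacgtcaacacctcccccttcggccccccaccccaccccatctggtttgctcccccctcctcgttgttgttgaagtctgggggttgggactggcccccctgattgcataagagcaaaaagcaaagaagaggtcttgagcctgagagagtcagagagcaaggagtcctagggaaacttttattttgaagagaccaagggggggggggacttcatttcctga
Hnf4a: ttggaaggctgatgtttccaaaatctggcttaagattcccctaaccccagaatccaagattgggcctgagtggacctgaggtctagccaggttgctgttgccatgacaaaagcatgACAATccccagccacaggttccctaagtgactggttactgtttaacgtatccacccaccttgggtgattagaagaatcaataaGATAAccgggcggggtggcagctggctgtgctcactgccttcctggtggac
The Pdgfra window held neither string. The Hnf4a window shown held GATAA beginning 51 bases before the start and ACAAT beginning 134 bases before it, and the other Hnf4a window held neither. Over all 32851 windows of this length, 22.6% held GATAA and 27.7% held ACAAT, so either match is common, and the search says nothing about binding.

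Values below are log2 of the authors' GC-RMA intensity, and levels of different probe sets are not compared, since probes differ in how brightly they bind. A Present, Marginal or Absent call comes from the array software's test of matched against mismatched probes. Between 44.3% and 50.9% of probe sets were Present on an array. The pool CMF_acid 5 stood apart: its mean correlation with the other arrays was 0.985, against 0.994 to 0.996 for the other 19, and its actin 3′/5′ ratio, a measure of how much of the transcript's length was copied, was the highest at 4.22. Where a value below was also computed without it and changed by much, that value is given as well.

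The members differed in how often they were detected. Gata6, the early factor, was Present on all 20 arrays by each of its 3 probe sets. The array software's detection p was 0.0081 to 0.046 for 1443081_at and at most 0.00073 for the other Gata6 probe sets. Pdgfra was Present on all 20 arrays by 2 of its 3 probe sets and on 18 by the third. Sox17 was Present on 20 arrays by 1429177_x_at and on 17 by 1421657_a_at. Gata4 was Present on 16 arrays by 1418863_at and on 0 by 1418864_at. Sox7 was Present on 17 arrays by 1416564_at and on 1 by 1432495_at. Hnf4a was Present on 19, 18, 15 and 4 arrays by its 4 probe sets. Foxa2 was Present on 0 arrays, with values between 1.68 and 1.76 that hold no measurable variation, which does not show that the transcript is absent.

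**Figure D1:**
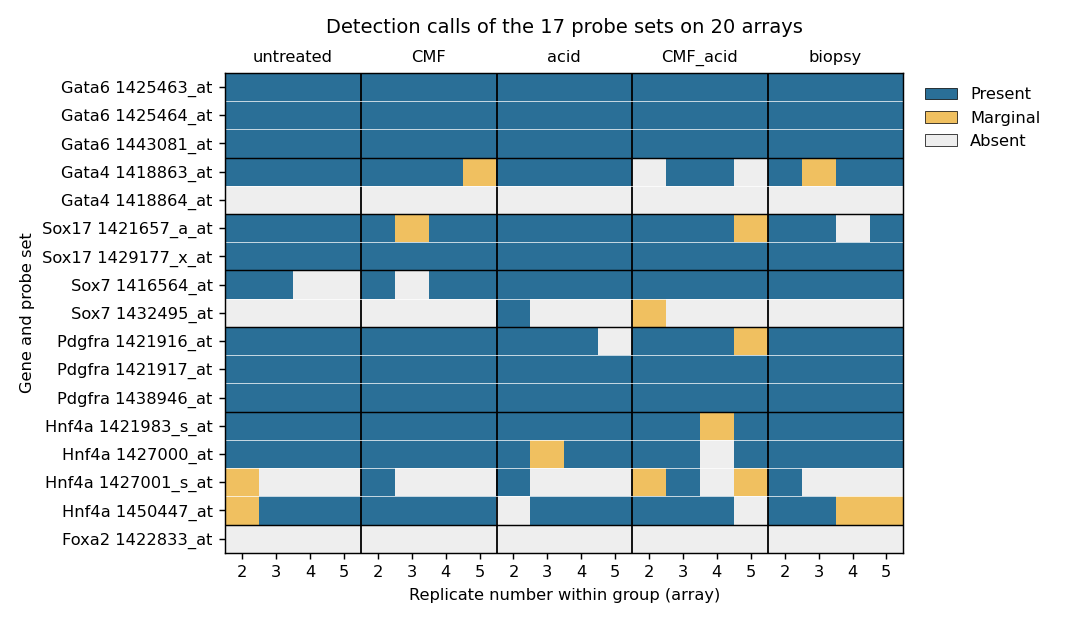
Detection calls for the 17 probe sets (rows) on the 20 arrays (columns, by group and replicate number). All 3 Gata6 rows are Present throughout, Foxa2 is Absent throughout, and Gata4, Sox7 and Hnf4a each have a row that is mostly Absent.

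Gata6, a zinc finger factor needed for the primitive endoderm to form, had group means that spanned at most 0.20 on any of its probe sets. Probe set 1425463_at read 11.74, 11.59, 11.53 and 11.31 in untreated pools 2 to 5. It read 11.44, 11.36, 11.55 and 11.54 in CMF, and 11.52, 11.41, 11.36 and 11.37 in acid. It read 11.29, 11.53, 11.38 and 11.43 in CMF_acid, and 11.36, 11.50, 11.28 and 11.36 in biopsy. The untreated pools held both the highest value and one of the lower ones, and each treated group overlapped them. The untreated mean was the highest, at 11.54, and the biopsy mean the lowest, at 11.37. Probe set 1425464_at lay between 13.21 and 13.49 on 19 arrays and at 12.51 in CMF_acid 5. Probe set 1443081_at lay between 8.63 and 9.26, with the highest value in an untreated pool and the lowest in a biopsied one. With group means removed, Pearson's r between 1425463_at and 1425464_at was 0.17 over 20 arrays, and 0.52 without CMF_acid 5. Probe set 1443081_at had r of −0.40 with the first and −0.17 with the second.

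Sox17, an HMG box factor of the endoderm, varied most. Probe set 1429177_x_at read 7.18, 4.79, 7.34 and 6.67 in untreated pools 2 to 5. It read 7.37, 5.88, 7.41 and 6.24 in CMF, and 8.08, 6.28, 7.43 and 6.29 in acid. It read 7.06, 5.14, 5.37 and 4.95 in CMF_acid, and 7.0, 5.22, 4.96 and 6.20 in biopsy. The group means ran, from high to low, 7.02 ± 0.89 in acid, 6.73 ± 0.78 in CMF, 6.49 ± 1.17 in untreated, 5.84 ± 0.94 in biopsy and 5.63 ± 0.97 in CMF_acid (SD, n = 4), and all 5 groups overlapped. Pool 2 was high in every group and pool 3 low in every group. The suffix of this probe set marks probes that may also bind other transcripts, so its values are not certain to be Sox17 alone. The other Sox17 probe set, 1421657_a_at, was dim, at 3.41 to 3.47 on most arrays and between 2.41 and 4.39 over all 20, and its deviations from group means went with those of 1429177_x_at (r = 0.68 over 20 arrays).

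Gata4, which is required later for the ventral folding of the embryo and marks primitive endoderm after Gata6, was near the lower end of the scale. Probe set 1418863_at read 2.97, 2.80, 3.66 and 2.78 in untreated pools 2 to 5. It lay between 2.77 and 3.51 in CMF, 2.62 and 3.39 in acid, 2.76 and 3.57 in CMF_acid, and 2.79 and 2.98 in biopsy. Most arrays lay within a narrow band, and single pools stood above it in each group other than biopsy. Sox7, a SOX factor that is a late marker of these cells, read 2.79 to 2.93 on 19 arrays and 3.24 in CMF_acid 2. Hnf4a, a nuclear receptor of the visceral endoderm, had 2 probe sets with almost no spread, 2.45 to 2.67 for 1421983_s_at and 2.38 to 2.49 for 1450447_at. Its probe set 1427000_at lay between 4.60 and 5.87 on 19 arrays and at 6.63 in CMF_acid 5. Its probe set 1427001_s_at lay between 7.69 and 8.45 on 19 arrays and at 9.08 in CMF_acid 5, although it was Present on only 4 arrays. At such levels GC-RMA compresses differences, so changes in Gata4, Sox7 and Hnf4a could be larger than these values show.

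Pdgfra, the receptor for PDGF ligands, was bright by 2 probe sets. Probe set 1421917_at read 10.52, 9.85, 10.81 and 10.27 in untreated pools 2 to 5. It read 10.43, 10.07, 10.20 and 9.98 in CMF, and 11.06, 9.92, 10.54 and 9.81 in acid. It read 10.35, 9.82, 10.23 and 9.36 in CMF_acid, and 10.42, 10.00, 9.35 and 9.85 in biopsy. The lowest values were in a CMF_acid and a biopsied pool and the highest in an acid one, and the groups overlapped. Probe set 1438946_at read 9.61, 9.14, 9.87 and 9.70 in untreated, 9.91, 9.49, 9.60 and 8.87 in CMF, and 10.54, 8.68, 9.91 and 8.92 in acid. It read 9.61, 8.75, 9.57 and 8.82 in CMF_acid, and 9.77, 9.11, 9.49 and 9.0 in biopsy. Here too pool 2 was above pool 3 in each group. The third probe set, 1421916_at, was dimmer, between 5.86 and 6.81, with the 2 highest values in untreated pools 4 and 5.

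**Figure D2:**
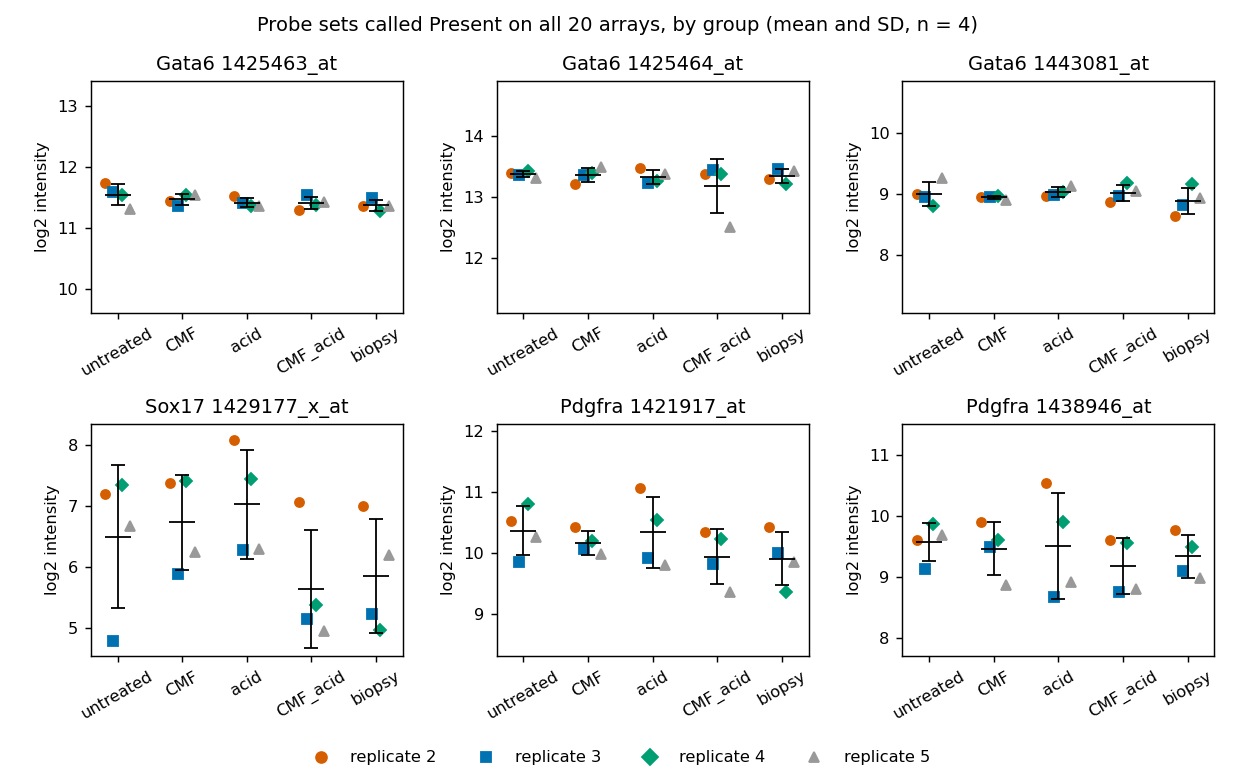
Log2 intensity of the 6 probe sets Present on all 20 arrays, by group. Points are pools (coloured by replicate number) and bars are means with SD (n = 4). All panels span the same number of log2 units. The Gata6 groups are tight apart from CMF_acid 5 at 12.51, and the Sox17 and Pdgfra groups are wide and overlap.

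The effect of the whole procedure on these genes was asked by comparing biopsied with untreated embryos. No member passed the test: 0 of 14 probe sets, against 0 of all 25553 tested (0%) by limma with Benjamini-Hochberg adjustment over all of them, with 535 probe sets at an unadjusted p below 0.05 (1042 without CMF_acid 5). Both counts are below 0.05 of the tested probe sets, the share that chance alone would give on average. Gata6 differed by −0.17 ± 0.08 (log2 difference ± SE) on 1425463_at, with a 95% interval of −0.34 to −0.00 (unadjusted p = 0.0468 by limma). On the other 2 Gata6 probe sets the difference was −0.03 ± 0.15 and −0.12 ± 0.10. Pdgfra differed by −0.46 ± 0.29 on 1421917_at (interval −1.08 to 0.16), by −0.24 ± 0.36 on 1438946_at (−0.99 to 0.52) and by −0.29 ± 0.16 on 1421916_at. Sox17 differed by −0.65 ± 0.65 on 1429177_x_at, with an interval of −2.02 to 0.72, which reaches both well below and above the untreated level. The adjusted p by limma was 0.999986 for each of these.

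The exposures without biopsy gave the same picture. None of the comparisons of CMF, acid, CMF_acid or the mean of the 4 treated groups with untreated embryos, of biopsy with CMF_acid, or of all 5 groups at once, called a member or any other probe set (0% in each), and neither did the CMF by acid interaction. At an unadjusted p below 0.05 there were 258 probe sets for CMF, 296 for acid, 683 for CMF_acid, 1881 for biopsy against CMF_acid, 235 for the mean of the treated groups, 868 for the interaction and 462 for the 5 groups together. Each but the 1881 is below 0.05 of the tested probe sets, the share that chance alone would give on average. These counts rest on single pools: without CMF_acid 5 they were 406, 461, 430, 739, 419, 531 and 558 in the same order, and without CMF_acid 2 the counts for CMF_acid, biopsy against CMF_acid, the interaction and the 5 groups were 2860, 4101, 2491 and 1318. Leaving out untreated 2, 3 or 4, CMF 3, acid 5, CMF_acid 3 or 4, or biopsy 5 also moved at least 1 of them by over 1.5 times, within 217 to 589 for CMF, 258 to 512 for acid and 198 to 549 for the mean. The receptor's dim probe set was the member nearest to a difference: Pdgfra 1421916_at was lower in CMF by −0.38 ± 0.16 (unadjusted p = 0.0292, adjusted p = 0.999973 by limma) and in the mean of the treated groups by −0.28 ± 0.13 (unadjusted p = 0.0415 by limma). Its brighter probe sets differed by −0.28 ± 0.23 (1421917_at) and −0.20 ± 0.28 (1438946_at) in the same mean. Sox17 1429177_x_at differed from untreated by 0.23 in CMF, 0.53 in acid and −0.86 in CMF_acid, each ± 0.65, and the interaction of −1.62 ± 0.92 had an adjusted p of 0.779 by limma. Hnf4a 1427001_s_at was lower in biopsy than in CMF_acid by −0.44 ± 0.21 (adjusted p = 0.617 by limma), a comparison that includes the high value of CMF_acid 5 and came to −0.18 without that pool.

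**Figure D3:**
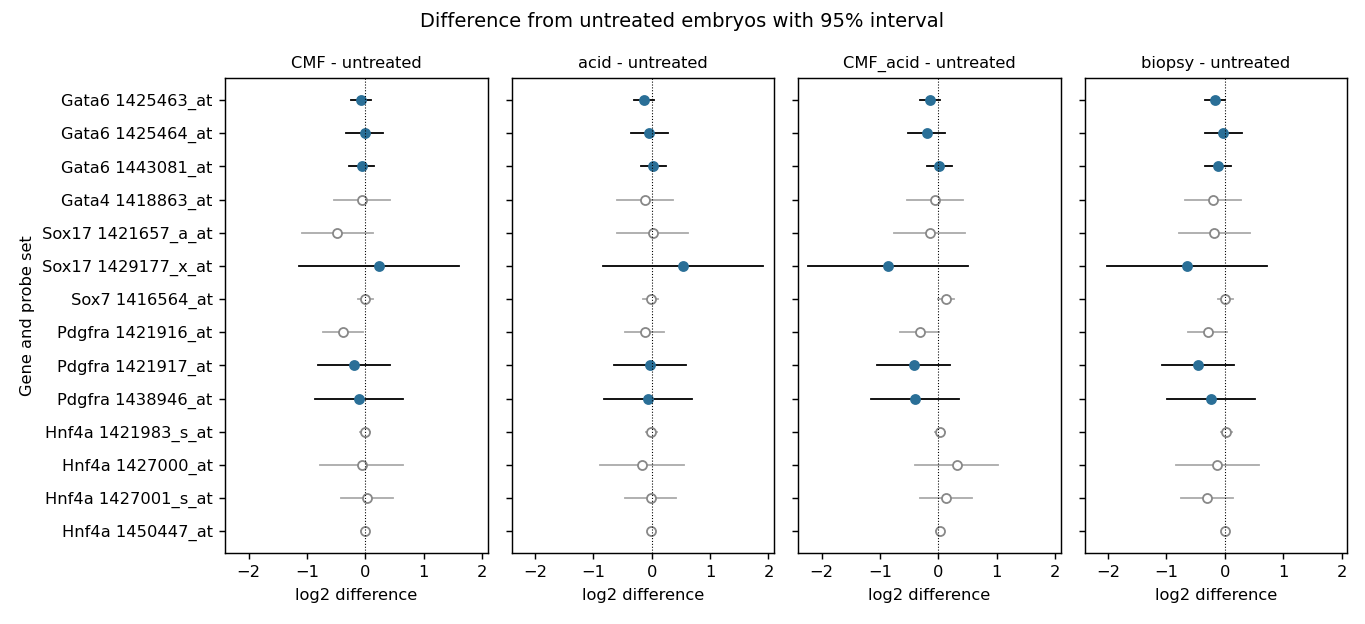
Log2 difference from untreated embryos for the 14 tested probe sets in each treated group, with 95% intervals from limma. Filled points are probe sets Present on all 20 arrays. The Gata6 intervals lie within −0.51 to 0.31, and that of 1425463_at in biopsy ends just below 0. Those of Sox17 1429177_x_at are the widest.

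Sox17 and Pdgfra differed between pools of different replicate number, each by 1 of its probe sets. A test of any difference between numbers 2 to 5, with the groups in the same fit, called 1056 of the 25553 probe sets (4.13%, limma, Benjamini-Hochberg). Without CMF_acid 5 it called 2394. With all arrays it called 2 of the 14 member probe sets. These were Sox17 1429177_x_at (adjusted p = 0.0387 by limma) and Pdgfra 1438946_at (adjusted p = 0.0368 by limma). The Sox17 means over the 5 groups were 7.34 ± 0.44 for number 2, 5.46 ± 0.60 for number 3, 6.50 ± 1.23 for number 4 and 6.07 ± 0.66 for number 5 (SD, n = 5). The highest mean was 3.67 times the lowest. No number 3 pool reached a number 2 pool, but these numbers were picked as the lowest and highest of the same values. The share of all tested probe sets with such a gap was not counted, so the gap adds nothing to the test. The Pdgfra means on 1438946_at were 9.89 ± 0.39, 9.03 ± 0.33, 9.69 ± 0.19 and 9.06 ± 0.36 in the same order, a span of 1.81 times. Both calls lie close to the threshold: without the detection filter, with a floor on low values and with quantile normalization the adjusted p by limma ran from 0.0531 to 0.0690, and both were lost. Both calls were kept with the software signal (adjusted p 0.0269 for Sox17 and 0.0367 for Pdgfra by limma). They were also kept among probe sets Present on 4 arrays of a group (0.0320 and 0.0314 by limma). They also depend on single pools. Sox17 kept its call when untreated 4, untreated 5, CMF 4, CMF_acid 5, biopsy 4 or biopsy 5 was left out and lost it without each of the other 14 (adjusted p 0.0182 to 0.0891 by limma). Pdgfra kept its call without untreated 2, untreated 5, CMF 3 or CMF_acid 5 and lost it without each of the other 16 (0.0215 to 0.0712 by limma).

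The remaining members did not pass this test. Pdgfra 1421917_at had means of 10.56 ± 0.29, 9.93 ± 0.10, 10.23 ± 0.55 and 9.85 ± 0.33 for numbers 2 to 5 (SD, n = 5), with an adjusted p of 0.116 by limma that became 0.0316 without biopsy 4. Hnf4a 1427001_s_at had an adjusted p of 0.376 by limma, and 0.0276 without CMF_acid 5. Gata4 1418863_at had an adjusted p of 0.185 by limma. Gata6 was level across the numbers, with means of 11.47, 11.48, 11.42 and 11.40 on 1425463_at and adjusted p of 0.880, 0.912 and 0.491 by limma for its 3 probe sets. Pool 2 was above pool 3 in 5 of 5 groups for both Sox17 and all 3 Pdgfra probe sets. The same held for Gata4 1418863_at and Hnf4a 1427000_at and 1427001_s_at. For the Gata6 probe sets it held in 3, 2 and 2 of 5 groups. The share of all tested probe sets with this order was not counted, so the order is not shown to be particular to these genes. Array quality differed between the numbers as well: the mean actin 3′/5′ ratio was 1.91, 2.05, 2.19 and 2.55 (2.13 for number 5 without CMF_acid 5) and the mean share of Present probe sets 49.9%, 49.8%, 48.9% and 47.5% (48.2% without that pool) for numbers 2 to 5, and its part in these differences was not tested.

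**Figure D4:**
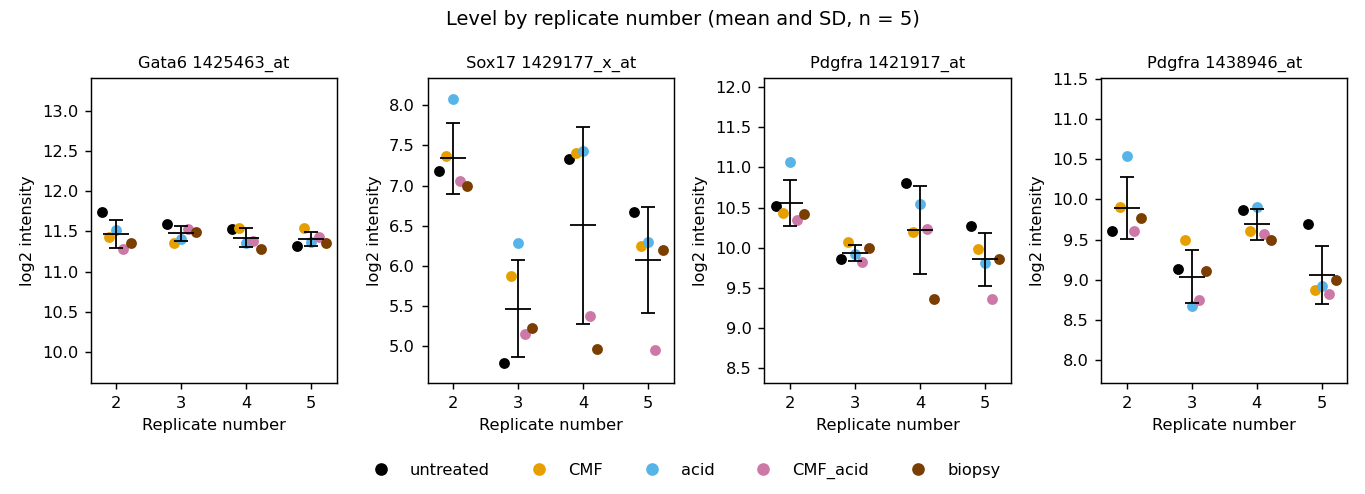
Log2 intensity by replicate number for 4 probe sets, points coloured by group, bars mean and SD (n = 5). All panels span the same number of log2 units. Gata6 is flat, Sox17 1429177_x_at is high in number 2 and low in number 3, and both Pdgfra probe sets are high in number 2.

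Sox17 and Pdgfra varied together from pool to pool. With group means removed, Pearson's r over the 20 arrays was 0.84 between Sox17 1429177_x_at and Pdgfra 1421917_at (Spearman's rho 0.86) and 0.71 between the same Sox17 probe set and Pdgfra 1438946_at (rho 0.71). These are descriptions without a p, since the pools of one number go together and both values of an array share its RNA and amplification. With the means of the numbers removed as well, the values were 0.74 and 0.25. The 2 brighter Pdgfra probe sets correlated at 0.80, and leaving out CMF_acid 5 gave 0.84, 0.69 and 0.80 for the 3 pairs. The Gata6 probe sets differed among themselves in this. With Sox17 1429177_x_at and Pdgfra 1421917_at, 1425463_at had r of −0.02 and 0.11, 1425464_at had 0.21 and 0.44 (0.05 and 0.20 without CMF_acid 5), and 1443081_at had −0.39 and −0.49.

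**Figure D5:**
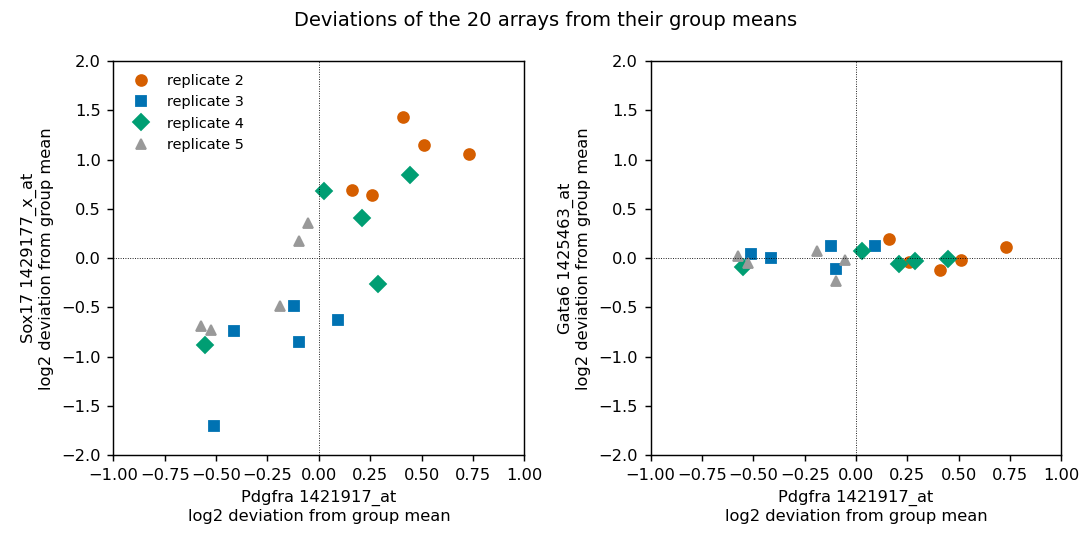
Deviations of the 20 arrays from their group means, in log2 units, with Pdgfra 1421917_at on the horizontal axes and Sox17 1429177_x_at (left) or Gata6 1425463_at (right) on the vertical axes. The left points run along a diagonal (r = 0.84) with number 2 pools at the upper right, and the right points lie along the horizontal line (r = 0.11).

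Among 9035 genes that were Present on all 20 arrays, those whose deviations from group means were most like Sox17 1429177_x_at were Elovl6, which lengthens fatty acids (r = 0.87), the rhomboid protease Rhbdl2 (0.87), Gm4926 (0.86), the RNA-binding splicing regulator Mbnl3 (0.85) and Pdgfra (0.84). The least alike were Entpd2 (−0.82) and Klrb1a (−0.85). For Pdgfra 1421917_at they were Rsrc1 (0.88), the actin-bundling protein Lcp1 (0.88), Gm4926 (0.86), the scaffold protein Magi3 (0.85) and the phospholipid flippase Atp11a (0.85), with Fam220a (−0.85) and Actn2 (−0.86) least alike. For Pdgfra 1438946_at they were Fam120aos (0.94), the microRNA processing subunit Dgcr8 (0.85), Qdpr (0.82), the LIF receptor subunit Il6st (0.82) and the tubulin Tuba1a (0.81), with Timd2 (−0.81) and Prelid2 (−0.85) least alike. The lists of the 2 Pdgfra probe sets share no gene. For Gata6 1425463_at the highest values were lower, led by Sdhaf2 (0.75), a mitochondrial assembly factor, and Tmem88 (0.74), and for Gata6 1443081_at they were led by Setd3 (0.76) and Bambi (0.74). Those of Gata6 1425464_at reached 0.97 with Map4k5 and 0.96 with the mitochondrial chaperone Hspd1, and these were 0.80 and 0.74 without CMF_acid 5. Each r is over 20 arrays, and being highest of so many genes makes it high by selection. Many also depend on the processing. With the software signal, r with the same member probe set fell to −0.04 for Bambi, 0.35 for Tmem88, 0.325 for Qdpr and 0.57 for Rhbdl2. Others held, with 0.88 for Lcp1, 0.89 for Magi3 and 0.90 for Tuba1a.

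The ligands and relatives of the members were measured on the same arrays. Pdgfa, the ligand of Pdgfra in the blastocyst, was Present on all 20 arrays and differed between biopsied and untreated pools by 0.19 ± 0.12. Its means for numbers 2 to 5 were 11.34, 11.48, 11.68 and 11.47 (adjusted p = 0.0514 by limma). Pdgfrb, the related receptor, was Present on all 20 arrays, Pdgfc on all 20 at 3.52 ± 0.28 in untreated pools (SD, n = 4), and Kit on 0. Of the 5 tested genes of this family none passed in either comparison. Among relatives of the transcription factors, Gata1, Gata2, Gata3, Sox2, Sox15, Sox21, Sox13 and the GATA cofactor Zfpm1 were Present on all 20 arrays, and Gata5, Foxa3 and Zfpm2 on 0. Of 11 tested relatives, none passed in biopsy against untreated and 1 passed between numbers, Sox21, with means of 10.23, 10.37, 10.54 and 10.54 (adjusted p = 0.0291 by limma), lowest in number 2.

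Other genes of the lineage gave the setting for these values, counted with 1 probe set per gene. Over all 12025 genes tested, 0% were called in biopsy against untreated, the median difference was 0.01, and 7107 were higher and 4918 lower. The members' median was −0.25, with 5 of 6 lower. This median is set by the middle values, those of Hnf4a 1427001_s_at (−0.31) and Gata4 1418863_at (−0.20). The former is the brightest Hnf4a probe set but Present on only 4 arrays, and the latter is near the lower end of the scale. The other Hnf4a probe sets differed by 0.02 (1421983_s_at), −0.13 (1427000_at) and 0.005 (1450447_at). Of 18 tested genes for the matrix and uptake proteins that endoderm cells make, 12 were lower and the median was −0.15, but none passed. The genes with the lowest unadjusted p there differed by −1.44 ± 0.42 for the collagen chaperone Serpinh1, −0.66 ± 0.20 for the uptake receptor Cubn, −0.34 ± 0.12 for the basement membrane collagen Col4a1 and −0.27 ± 0.10 for the collagen hydroxylase subunit P4ha2 (adjusted p = 0.999986 by limma for each). Serpinh1 was Present on 6 arrays. The medians were 0.03 for 8 other endoderm transcription factors, −0.02 for 7 secreted proteins of the visceral endoderm, 0.05 for 21 genes of FGF and ERK signalling, −0.06 for 21 epiblast genes and 0.05 for 23 trophectoderm genes.

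Between replicate numbers, 677 of the 12025 genes were called (5.63%). This and the counts below were made with all arrays only, not without CMF_acid 5. Of the 6 member genes tested, 1 was called, Sox17, since Pdgfra is represented here by 1421917_at. The counts were 0 of 8 other endoderm transcription factors, 1 of 18 matrix and uptake genes (Plat, 8.43, 8.26, 8.07 and 7.56 for numbers 2 to 5), 1 of 7 visceral endoderm genes (Apoa1, 9.54, 9.76, 8.82 and 9.79), and 1 of 21 FGF and ERK genes (Gab1). Neither Plat nor Apoa1 had its lowest mean in number 3, where Sox17 did. Of 21 epiblast genes 3 were called (Pou5f1, Tdgf1 and Gdf3), and of 23 trophectoderm genes 3 (Eomes, Krt18 and Tfap2c). Tdgf1, a Nodal co-receptor, had means of 11.93, 11.29, 11.58 and 11.43, and the trophoblast factor Eomes 12.01, 11.56, 11.75 and 11.44, so number 2 was highest for these genes of other lineages too. Of the 17 cumulus and granulosa cell genes looked at, 6 were tested and 0 passed, and Fshr, Has2, Inha, Inhba, Tnfaip6 and Hsd3b1 were Present on 0 arrays.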

How the data were processed

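RNA from 20 pools of blastocysts was amplified in repeated rounds and hybridised to 1-colour arrays. Per the series design text, the authors computed GC-RMA intensity values with ArrayAssist Lite 3.4, and the deposited series table holds these on a linear scale; log2 was taken here. The array software's signal and detection call, with its p-value, were deposited for each array and used as an alternative (log2 of signal plus 1) and for the filter. Neither the labels nor the deposited files name a genome build; the promoter windows come from RefSeq on GRCm38.p6. The members and all gene lists were chosen with earlier results of these data known.

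Of 45101 probe sets, 64 controls were left out and 25553 with a Present call on 3 or more of 20 arrays were tested, as the design text filters them. Symbols came from the platform annotation, updated by gene number: 34958 probe sets had 1 symbol, 932 several and 9211 no annotation row. limma 3.58.1 (R 4.3.3) fitted 5 group means to all 20 arrays, with Benjamini-Hochberg adjustment over all tested probe sets and a threshold of 0.05. The replicate number was tested by an F test with group in the fit. Intervals are 95%. The fit was tested on simulated data. Precision is limited by 4 arrays per group. Genes alike in pattern were the 5 with the highest and the 2 with the lowest r for each member probe set Present on all arrays, by 1 probe set per gene (the highest mean). From each list, the direct relatives and ligands and up to 4 genes with the lowest p were open to naming, and genes passing between numbers were named after their values were seen. Alternatives were the software signal, no detection filter, Present on 4 arrays of a group, a floor at intensity 32, quantile normalization, a replicate block, only the groups compared, and leaving out each array. Likeness and array quality without CMF_acid 5 were added after seeing the data.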

Additional observations from a re-analysis of the deposited data

Results flagged for a closer look

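Single pools stood apart from the other 3 of their group in 8 of the 70 combinations of tested probe set and group. The measure was the gap to the nearest pool relative to the whole range. Chance gives about 1 in 20 for independent, normally distributed values, which values near the bottom of the scale need not be. Gata6 1425464_at was 12.51 in CMF_acid 5, with the others between 13.37 and 13.44. Gata4 1418863_at was 3.57 in CMF_acid 4, with the others between 2.76 and 2.85. Sox17 1421657_a_at was 4.30 in untreated 4 (others 3.43 to 3.47), 2.41 in CMF 3 (others all 3.44), 4.39 in acid 2 (others 3.41 to 3.46) and 3.71 in CMF_acid 2 (others 3.43 to 3.47). Hnf4a 1427000_at was 5.51 in CMF 4, with the others between 4.94 and 5.00, and Hnf4a 1427001_s_at was 8.27 in biopsy 2, with the others between 7.69 and 7.77.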

How the results depend on the processing

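No group comparison called a member under any alternative. Leaving out 1 array each gave 0 to 1 called probe sets in the comparisons of biopsy, CMF, acid, CMF_acid and the mean of treatments with untreated, in the interaction and over the 5 groups (none a member, each without untreated 5, acid 5 or CMF_acid 4), and 0 to 0 for biopsy against CMF_acid. Probe sets called between replicate numbers came to 245 with the software signal and 675 with no filter, against 1056, and to 534 to 2394 with an array left out, the highest without CMF_acid 5. Member probe sets called there came to 0 with no filter, with the floor and with quantile normalization, and to 0 to 3 with an array left out. The Sox17 and Pdgfra calls were kept with the software signal and with Present on 4 arrays of a group. The sign of small differences turned: with the software signal, biopsy minus untreated was 0.0197 for Gata6 1425464_at and 0.0583 for Gata6 1443081_at, and CMF minus untreated was −0.0302 for Sox17 1429177_x_at. With an array left out, Gata6 1425464_at ran from −0.0652 to 0.0161 in biopsy and −0.286 to 0.0248 in CMF_acid, and Sox17 1429177_x_at from −0.339 to 0.513 in CMF and −0.042 to 0.807 in acid, against untreated. The correlation of Pdgfra 1421917_at with Sox17 1429177_x_at was 0.64 with the software signal. The cause was not tested for any of these.

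Pools of the same number correlated at a median of 0.20 after group means were removed, with 30 of 40 pairs over 0.1. Pools of different number had a median of −0.07, with 16 of 120 pairs over 0.1. These medians are not independent, since deviations in a group sum to 0 and likeness in 1 set of pairs lowers the other. By mean correlation, 19 of 20 arrays were most like their own number. The rule used for pairing asks for every pair to be over 0.1, which was not met. Missing this rule does not show that the numbers lie outside the design, and the labels do not say what they stand for. The likeness of same-number pools is thus a hint from the data. The group differences, SEs and intervals above come from a fit without the number, so variation between numbers is part of their spread. With the replicate number as a block, 0 probe sets were called in every group comparison, with 900 at an unadjusted p below 0.05 for biopsy against untreated. That count too is below 0.05 of the tested probe sets. Pdgfra 1421917_at in CMF_acid against untreated had an adjusted p of 0.766 by limma with the block and 0.834 without it. Each is the lowest adjusted p of any probe set in its fit, so the pair does not show what the block changed for Pdgfra.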
